A study of Homo sapiens with 8 samples.

Results

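The PHF genes encode proteins with a plant homeodomain (PHD) finger, and 10 of them were followed by name in mRNA-seq of Panc-1 cells: *PHF13*, *PHF23*, *PHF2*, *PHF3*, *PHF6*, *PHF8*, *PHF10*, *PHF12*, *PHF14* and *PHF20*. All 10 had a row among the 13307 genes of the table, none was lost to the minimum on low values, and they were chosen by name, with earlier results of these data known. The question was whether related readers, above all *PHF23*, change when *PHF13* falls.

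Panc-1 is an established human line from a carcinoma of the pancreatic duct. Cells of all groups were transfected with RNAiMAX, with a non-targeting control siRNA (siControl) or with siRNAs against *PHF13* (siPHF13). From the next day on, part of each received 10 ng/ml TGFβ for 48 h (siControl + TGFβ and siPHF13 + TGFβ), a cytokine that drives epithelial to mesenchymal transition. Each of the 4 groups had 2 libraries of one cell line. The labels do not say whether these came from separate cultures, so that p-values measure the spread between these libraries, which may be technical. The libraries held between 39196214 and 46700806 reads on genes.

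A PHD finger is a small fold held by zinc ions, and many such fingers bind the tail of histone H3 and tell its methylated from its unmethylated form. The proteins that carry one are readers of chromatin. Some are also enzymes that remove methyl groups, and others are subunits that bring a remodelling, acetylating or deacetylating complex to its sites.

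Depletion of *PHF13* was seen in every library, and *PHF23*, which encodes the nearest relative of the PHF13 protein, differed between depleted and control cells by less than the replicates did. Of the other 9 members only *PHF10* and *PHF8* passed the test, and both were lower by less than the fold threshold. They are 22.2% of the 9, where 24.3% of all genes were lower by the test without TGFβ and 25.9% with it. The normalized read count of each gene in each library, that is the reads on its exons divided by a size factor of the library, is shown in the panels by gene.

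**Figure D1:**
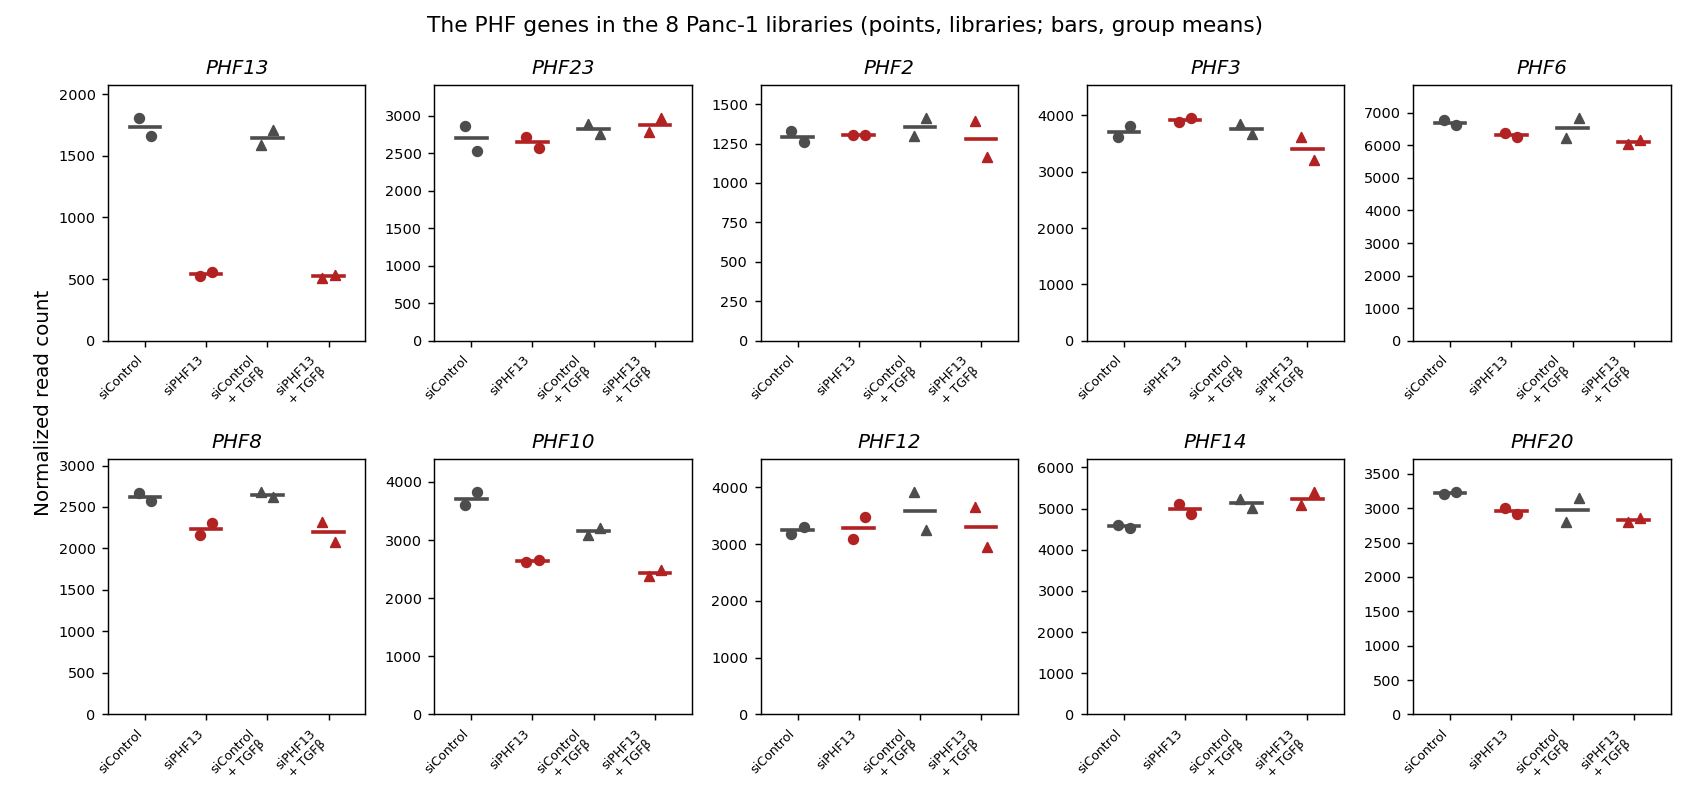
Normalized read count (y axis, from 0, a scale of its own in each panel) of the 10 PHF genes in the 8 libraries; points are libraries, bars are group means of 2 libraries, grey is siControl, red is siPHF13, and triangles are cells with TGFβ. *PHF13* lies between 513 and 558 in the 4 depleted libraries and between 1586 and 1804 in the 4 control libraries. *PHF8* and *PHF10* are also lower in all 4 depleted libraries, as are 24.2% of all genes, and the other 7 genes overlap.

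*PHF13* encodes a reader of histone H3 trimethylated at lysine 4 (H3K4me3), a mark of active promoters. Its normalized read count was 1804 and 1662 in siControl, 524 and 558 in siPHF13, 1586 and 1709 in siControl + TGFβ, and 513 and 529 in siPHF13 + TGFβ. The depleted libraries lay far under the control libraries, with no overlap. Without TGFβ the level in siPHF13 was 31.3% of that in siControl (95% interval 27.2% to 35.9%), a log2 change of -1.68 ± 0.09 (SE; adjusted p = 1.52e-08, limma). With TGFβ it was 31.7% (27.6% to 36.4%), a log2 change of -1.66 ± 0.09 (adjusted p = 1.30e-08, limma). This is the targeted gene, so the values check the siRNA labels of the 8 libraries. They do not check the TGFβ labels. In RNA from a whole culture, fewer cells with the transcript and less of it per cell cannot be told apart.

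*PHF23* encodes another reader of H3K4me3. The longest run shared by the full transcripts of *PHF13* and *PHF23* was 16 bases, and no window of 150 bases of either occurred in another gene. Between *PHF13* and the other 8 members the longest shared runs were 12 to 17 bases.

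The normalized read count of *PHF23* was 2869 and 2535 in siControl, 2721 and 2575 in siPHF13, 2887 and 2758 in siControl + TGFβ, and 2787 and 2969 in siPHF13 + TGFβ. The groups overlapped in both comparisons, and the highest of the 8 libraries was 1.17 times the lowest. The log2 change after depletion was -0.03 ± 0.08 without TGFβ (95% interval -0.19 to 0.14, adjusted p = 0.796, limma) and 0.03 ± 0.08 with TGFβ (-0.14 to 0.19, adjusted p = 0.789). Averaged over both, *PHF23* in depleted cells was at 100.03% of its level in control cells, with a 95% interval of 92.2% to 108.5%. The interval leaves room for a rise of up to 8.5% or a fall to 92.2%, and the direction of so small a change turned with the processing. After values were corrected for the GC content and length of the transcripts, the averaged log2 change was -0.11 (adjusted p = 0.0643, limma).

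**Figure D2:**
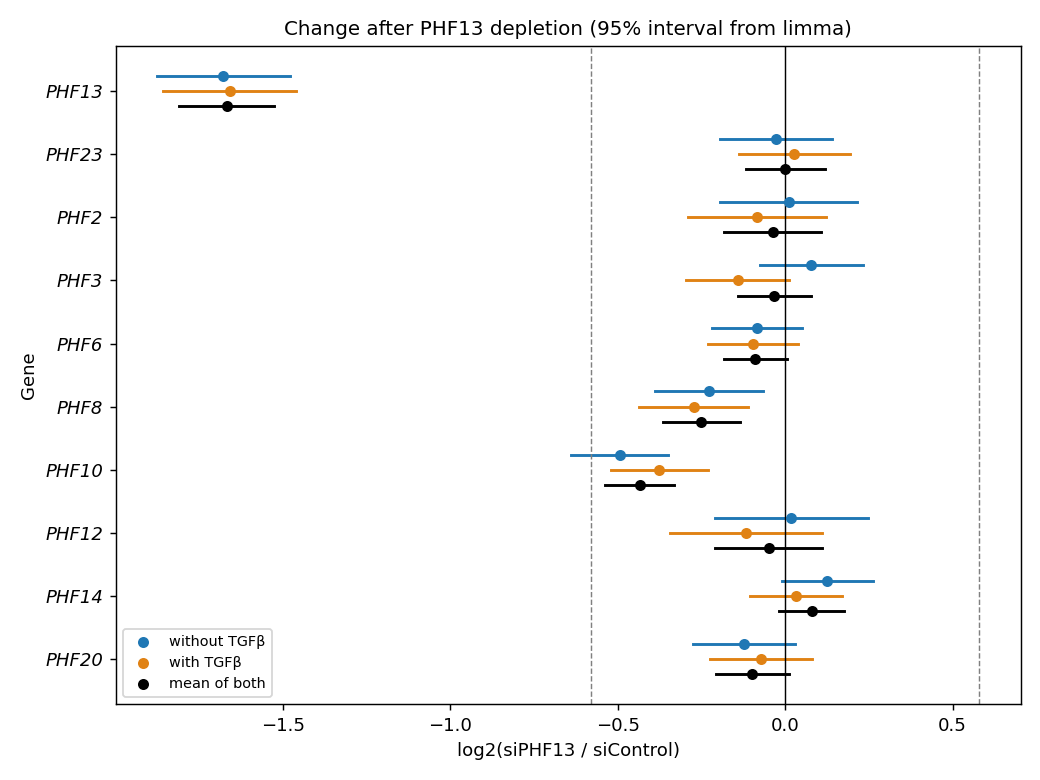
Log2 change after PHF13 depletion (x axis; siPHF13 over siControl) of the 10 PHF genes (y axis); points are limma estimates without TGFβ (blue), with TGFβ (orange) and averaged (black), lines are 95% intervals, and dashed lines mark the fold threshold of 0.58. *PHF13* lies near -1.67, *PHF10* and *PHF8* lie under 0 with intervals that leave out 0, and the interval of *PHF23* spans 0 in all 3 estimates.

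Genes were called changed at an adjusted p under 0.05, from the limma fit over all 13307 genes, and an absolute log2 change over 0.58. Of the 10 genes, 1 was called without TGFβ and the same gene, *PHF13*, with TGFβ, beside 18.4% and 20.5% of all genes. By the adjusted p alone 3 of 10 were lower in each comparison, beside 24.3% and 25.9% of all genes, and 0 were higher, beside 23.1% and 24.5%. The 3 genes were *PHF13*, *PHF8* and *PHF10* both times. Averaged over the treatments, *PHF13* again was the 1 gene called, beside 20.7% of all genes, and 3 were lower by the adjusted p alone, beside 31.1%. Of the 9 genes beside *PHF13*, 0 were called by limma, edgeR or DESeq2 in either comparison, and 2 had an unadjusted p under 0.05 in limma. The 9 genes moved little: the median absolute log2 change was 0.08 without TGFβ and 0.09 with TGFβ, where the medians over all genes were 0.29 and 0.31. The 2 comparisons share no library, and the averaged value uses all 8. Both take their spread from the same limma fit over all 8 libraries, so their p-values are not independent.

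*PHF8* and *PHF2* encode demethylases of the KDM7 family, whose PHD finger binds H3K4me3 and whose JmjC domain removes methyl groups from histone H3 at lysine 9. The normalized read count of *PHF8* was 2664 and 2568 in siControl, 2167 and 2305 in siPHF13, 2680 and 2619 in siControl + TGFβ, and 2317 and 2074 in siPHF13 + TGFβ. All 4 depleted libraries lay under all 4 control libraries, as they did for 24.2% of all genes. The log2 change was -0.23 ± 0.08 without TGFβ (adjusted p = 0.0237, limma) and -0.27 ± 0.08 with TGFβ (adjusted p = 0.00805), and the averaged level was 84.1% of control (95% interval 77.7% to 91.1%, adjusted p = 0.00102). The call without TGFβ was lost in limma without siControl replicate 1, siControl replicate 2 or siPHF13 replicate 1, where adjusted p was 0.156, 0.0756 and 0.152. The fits with edgeR (-0.18, adjusted p = 0.156) and DESeq2 (-0.18, adjusted p = 0.213) also lacked siPHF13 replicate 1, without which limma gave -0.18 too. That with TGFβ was lost with the correction for GC content and length (-0.16, adjusted p = 0.0597) and without siPHF13 + TGFβ replicate 2 (-0.19, adjusted p = 0.0571).

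*PHF2*, the relative of *PHF8*, had normalized read counts of 1333 and 1257 in siControl, 1303 and 1304 in siPHF13, 1298 and 1410 in siControl + TGFβ, and 1395 and 1167 in siPHF13 + TGFβ. Its groups overlapped in both comparisons. The averaged log2 change was -0.04 ± 0.07 (95% interval -0.18 to 0.11, adjusted p = 0.654, limma). The transcripts of *PHF2* and *PHF8* shared a run of 20 bases, the longest among the 10 genes, and no window of 150 bases.

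*PHF10* encodes a subunit with PHD fingers of PBAF, a chromatin remodelling complex of the SWI/SNF family, and it changed most of the 9 genes beside *PHF13*. Its normalized read count was 3599 and 3826 in siControl, 2619 and 2652 in siPHF13, 3092 and 3205 in siControl + TGFβ, and 2375 and 2480 in siPHF13 + TGFβ. The 4 depleted libraries lay under the 4 control libraries, as they did for 24.2% of all genes, and within either treatment the gap exceeded the spread between the replicates. The log2 change was -0.49 ± 0.07 without TGFβ (71.0% of control, 95% interval 64.3% to 78.5%, adjusted p = 4.47e-05, limma) and -0.38 ± 0.07 with TGFβ (77.1%, 69.8% to 85.2%, adjusted p = 0.000394). It passed the adjusted p under every alternative run for these comparisons, with an averaged log2 change of -0.33 after the correction for GC content and length.

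Some reads on *PHF10* may belong to a neighbour. In the annotation (GRCh37, chr6:170103998-170125662, minus strand), 22.4% of the bases of its canonical transcript lie under exons of *C6orf120* on the other strand. Of the windows of 150 bases of that transcript, 4.11% also occur there. The longest transcript of *PHF10* was not examined for this overlap. Whether counting used the strand is not given in the sources used here. *C6orf120* itself had a log2 change of 0.20 ± 0.08 without TGFβ (adjusted p = 0.0630, limma) and 0.28 ± 0.08 with TGFβ (adjusted p = 0.0120), so it rose in the second comparison while *PHF10* fell. The part of this overlap in the value of *PHF10* was not tested.

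*PHF20* encodes a subunit of the NSL complex, which acetylates histone H4 through KAT8. The counts of *PHF20* were 3208 and 3235 in siControl, 2996 and 2921 in siPHF13, 2802 and 3150 in siControl + TGFβ, and 2797 and 2856 in siPHF13 + TGFβ. Both depleted libraries were lower without TGFβ, and the groups overlapped with TGFβ. The averaged log2 change was -0.10 ± 0.05 (95% interval -0.21 to 0.01, adjusted p = 0.109, limma).

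*PHF12* encodes a protein that joins the SIN3 and histone deacetylase complex to chromatin. Its counts were 3173 and 3309 in siControl, 3097 and 3480 in siPHF13, 3917 and 3243 in siControl + TGFβ, and 3653 and 2953 in siPHF13 + TGFβ. With TGFβ the replicates of each group lay further apart than the group means, and the averaged log2 change was -0.05 ± 0.07 (95% interval -0.21 to 0.11, adjusted p = 0.587, limma).

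*PHF3*, *PHF6* and *PHF14* belong to none of these complexes by the roles used here. *PHF3* encodes a protein that binds RNA polymerase II through its SPOC domain, and it had counts of 3618 and 3806 in siControl, 3887 and 3949 in siPHF13, 3855 and 3663 in siControl + TGFβ, and 3611 and 3213 in siPHF13 + TGFβ. Its log2 change had opposite signs, 0.08 ± 0.07 without TGFβ (adjusted p = 0.395, limma) and -0.14 ± 0.07 with TGFβ (adjusted p = 0.116). Exons of *EYS* on the other strand cover 9.67% of its transcript, and *EYS* had between 11.9 and 49.3 normalized reads. *PHF6*, an X-linked gene mutated in leukaemia, had 6772 and 6622 in siControl, 6379 and 6271 in siPHF13, 6235 and 6832 in siControl + TGFβ, and 6048 and 6178 in siPHF13 + TGFβ. Its depleted libraries were lower within either treatment, by an averaged log2 change of -0.09 ± 0.04 (95% interval -0.18 to 0.01, adjusted p = 0.0976). Taken over both treatments, its depleted libraries (up to 6379) overlapped the control libraries (from 6235). *PHF14* encodes a PHD finger protein that binds histone H3, and it had 4607 and 4528 in siControl, 5113 and 4861 in siPHF13, 5244 and 5006 in siControl + TGFβ, and 5086 and 5402 in siPHF13 + TGFβ. Its log2 change after depletion was 0.13 ± 0.06 without TGFβ (adjusted p = 0.118) and 0.03 ± 0.06 with TGFβ (adjusted p = 0.695). *PHF14* passed the test in both with the correction for GC content and length, at 0.25 each (adjusted p = 0.0106 and 0.00929), and without TGFβ also when only the compared libraries were fitted (adjusted p = 0.0447).

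The genes differed in base composition, which the rule did not use. The canonical transcripts of *PHF3*, *PHF6*, *PHF14* and *PHF20* had a GC content of 36.3%, 36.5%, 43.8% and 45.4%, and those of the other 6 lay between 53.0% and 55.5%. The correction used the longest transcript instead, which is another one for *PHF6*, *PHF10*, *PHF12* and *PHF14*. With the correction for GC content and length the averaged log2 change of *PHF3* went from -0.03 to 0.11, that of *PHF6* from -0.09 to 0.03 and that of *PHF20* from -0.10 to 0.02. Of the genes richer in G and C, *PHF8* went from -0.25 to -0.17 and *PHF10* from -0.43 to -0.33, while *PHF23* went from 0.00 to -0.11.

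Without siRNA against *PHF13*, the levels per length could be ordered. In siControl, per kb of the longest transcript, *PHF6* stood at 1407 ± 22.2 normalized reads (SD, n = 2) and *PHF23* at 1366 ± 119, which did not differ beyond their spread. *PHF10* followed at 845 ± 36.4 and *PHF20* at 548 ± 3.24. *PHF13* itself stood at 477 ± 27.6 and *PHF14* at 463 ± 5.67, within the spread of each other, and *PHF12* at 422 ± 12.6 and *PHF8* at 412 ± 10.7, also within it. *PHF2* at 240 ± 9.93 and *PHF3* at 198 ± 7.05 were lowest. The order depends on the transcript chosen: per kb of the canonical transcript, a choice made after seeing the data, *PHF10* led with 1713 ± 73.8 and *PHF14* stood at 1333 ± 16.3, while *PHF13* was still at 477. On either length *PHF23* was the more abundant of the pair of relatives, by the level per kb.

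The response to TGFβ was asked of the same genes. In siControl cells 0 of 10 were called, beside 4.79% of all genes, with limma, edgeR or DESeq2, and 2 of 10 had an unadjusted p under 0.05. *PHF10* passed the adjusted p alone, as did 15.9% of all genes: it was lower by a log2 change of -0.24 ± 0.07 (84.8% of untreated, adjusted p = 0.0277, limma). That call was lost without any one of the 4 libraries compared (adjusted p between 0.0662 and 0.276), while the log2 change stayed between -0.28 and -0.19. *PHF14* was higher in both treated libraries, with a log2 change of 0.17 ± 0.06 that did not pass (adjusted p = 0.0973). It passed when only the compared libraries were fitted (adjusted p = 0.0344) and without siPHF13 + TGFβ replicate 1 or 2 (adjusted p = 0.0442 and 0.0447), at the same log2 change. *PHF13* itself had a log2 change of -0.07 ± 0.09 (95% interval -0.27 to 0.13, adjusted p = 0.671), and *PHF23* one of 0.07 ± 0.08 (-0.10 to 0.23, adjusted p = 0.644). These values share the siControl libraries with the depletion without TGFβ, so that the siControl value of *PHF10* enters both.

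**Figure D3:**
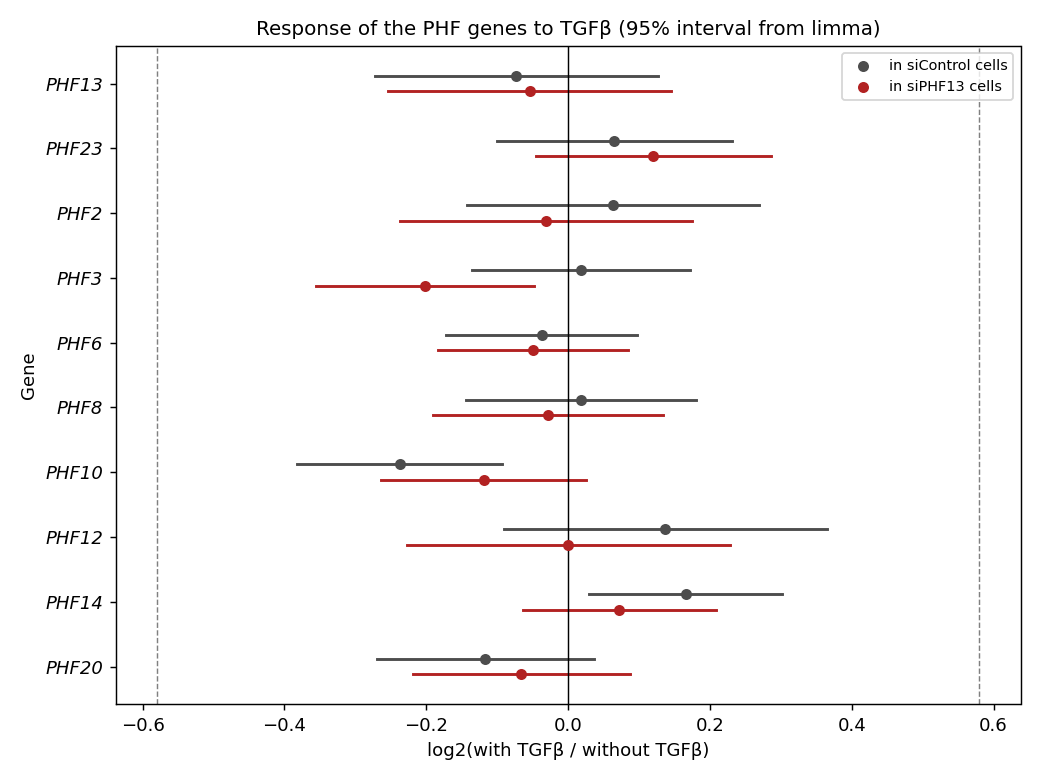
Log2 change with TGFβ (x axis) of the 10 PHF genes (y axis) in siControl cells (grey) and siPHF13 cells (red); points are limma estimates, lines are 95% intervals, and dashed lines mark the fold threshold of 0.58. No gene reaches the threshold; *PHF10* lies at -0.24 in siControl and -0.12 in siPHF13 cells, and *PHF3* at 0.02 and -0.20.

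In siPHF13 cells 0 of 10 were called, beside 1.35% of all genes, and 0 passed the adjusted p alone, beside 3.07%. Only *PHF3* had an unadjusted p under 0.05 in limma and edgeR, with a log2 change of -0.20 ± 0.07 (adjusted p = 0.191, limma), and DESeq2 gave 0 such genes. Without siPHF13 + TGFβ replicate 1 its adjusted p was 0.0346. *PHF10* had a log2 change of -0.12 ± 0.07 (adjusted p = 0.484) and *PHF23* one of 0.12 ± 0.08 (adjusted p = 0.560). The difference between both responses, tested as an interaction, was called for 0 of 10 genes with limma, edgeR or DESeq2, beside 0.308% of all genes. *PHF3* again was the 1 gene with an unadjusted p under 0.05 in limma, with a difference of -0.22 ± 0.10 on the log2 scale (adjusted p = 0.520). The effect of depletion on *PHF13* differed between the treatments by 0.02 ± 0.13 (95% interval -0.26 to 0.30).

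The genes whose pattern over the 8 libraries was nearest to that of *PHF13*, searched among the 11201 genes that averaged 100 or more normalized reads, were *LPGAT1*, *FAF2* and *LAMTOR1*. The root mean square difference between their centred log2 values and those of *PHF13* was 0.06, 0.07 and 0.08, where the median gene stood at 0.85. *LPGAT1* went from a mean of 9030 in siControl to 2930 in siPHF13, and from 9183 to 2796 with TGFβ. For *PHF23* the nearest were *ATP6V0E1*, *BBS7* and *CST3*, at 0.04 each, where the median gene stood at 0.20. No other of the 10 genes was among these 6.

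The 14 other PHF genes and relatives with a row, out of 15 looked for, gave the family background. Without TGFβ 2 were called and with TGFβ 5, or 14.3% and 35.7%, beside 18.4% and 20.5% of all genes. By the adjusted p alone 7 and 10 passed, where the shares of all genes were 47.4% and 50.4%. The median absolute log2 change was 0.27 and 0.37, where the medians over all genes were 0.29 and 0.31. *PHF5A*, which encodes a small subunit of the splicing complex SF3b whose fold resembles a PHD finger, rose from 817 and 853 in siControl to 1810 and 1569 in siPHF13, and from 672 and 698 to 1312 and 1573 with TGFβ. These are log2 changes of 1.01 ± 0.10 (adjusted p = 3.83e-06, limma) and 1.07 ± 0.10 (adjusted p = 2.15e-06). *PHF11* fell from 653 and 573 to 428 and 382, and from 770 and 620 to 437 and 392 with TGFβ, with log2 changes of -0.60 ± 0.13 and -0.74 ± 0.13 (adjusted p = 0.00229 and 0.000434). The first of these lay under the fold threshold without siControl replicate 1 or siPHF13 replicate 2.

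*PHF19*, which encodes a partner of Polycomb repressive complex 2, had 2917 and 2778 normalized reads in siControl and 3819 and 3683 in siPHF13. With TGFβ it had 1997 and 2214 in siControl and 3369 and 3621 in siPHF13, a rise of 0.73 ± 0.07 on the log2 scale (adjusted p = 2.70e-06, limma). *KDM7A*, the third demethylase of the family of *PHF8* and *PHF2*, had 1234 and 1257 in siControl and 1093 and 1236 in siPHF13, which overlap. With TGFβ it stood at 2205 and 2042 in siControl and at 1448 and 1378 in siPHF13. Its rise with TGFβ in siControl cells was 0.77 ± 0.09 on the log2 scale (adjusted p = 3.93e-05), and its depletion effect with TGFβ was -0.59 ± 0.09 (adjusted p = 7.55e-05). The latter was under the fold threshold with the correction for GC content and length, and without siControl + TGFβ replicate 1 or siPHF13 + TGFβ replicate 2. The difference of the *KDM7A* response to TGFβ between siPHF13 and siControl cells was -0.49 ± 0.12 on the log2 scale (adjusted p = 0.151, limma). *PHF7* went from 134 and 175 to 184 and 275 without TGFβ (0.55 ± 0.23, adjusted p = 0.0621), which did not pass, and from 113 and 90.5 to 194 and 165 with it (0.81 ± 0.23, adjusted p = 0.00924). The second value was not called without siControl + TGFβ replicate 2. The averaged value of *PHF7* was called (0.68 ± 0.16, adjusted p = 0.00225), but without siPHF13 replicate 2 it was 0.54, under the fold threshold. The effects with and without TGFβ differed by 0.26 ± 0.33 (adjusted p = 0.876).

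**Figure D4:**
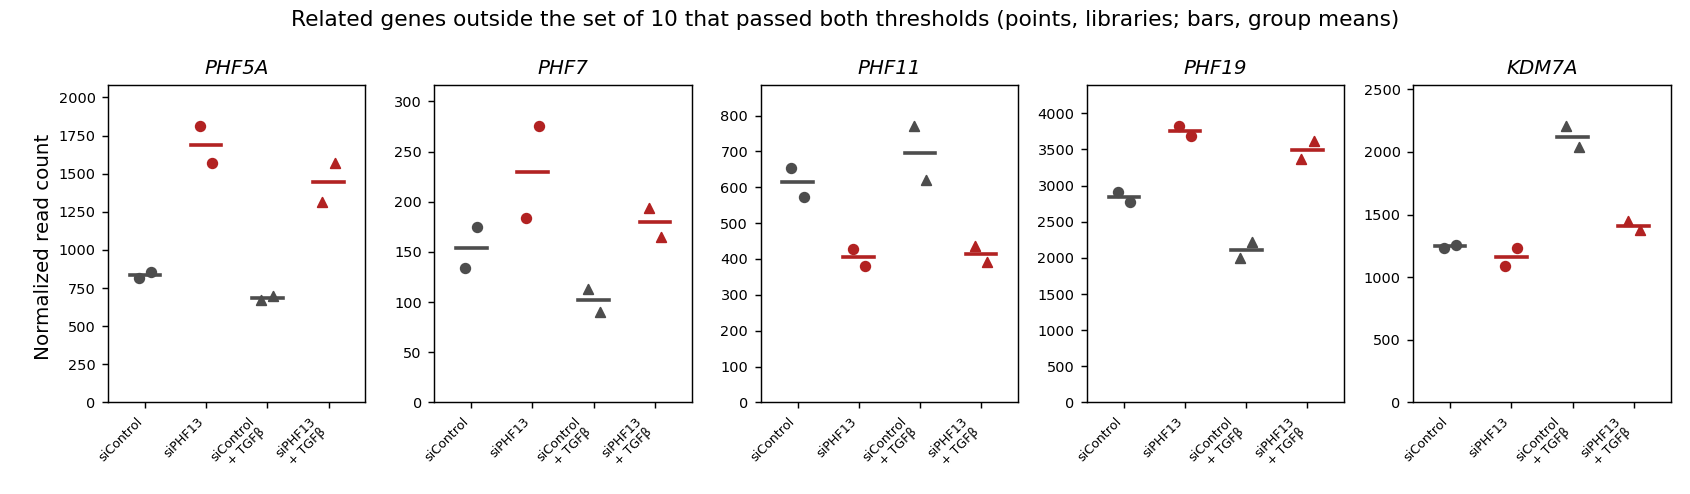
Normalized read count (y axis, from 0, a scale of its own in each panel) of 5 relatives outside the set of 10 in the 8 libraries; points are libraries, bars are group means of 2 libraries, grey is siControl, red is siPHF13, and triangles are cells with TGFβ. *PHF5A* and *PHF19* are higher in all 4 depleted libraries, as are 23.2% of all genes. *PHF11* is lower in all 4, as are 24.2% of all genes, and *KDM7A* is highest in siControl + TGFβ.

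Partners of the 10 proteins were taken from lists of known readers and complexes. A further list held 21 other genes with a PHD finger, not all of them readers of methylated H3K4. Of these, 4 were called without and 4 with TGFβ, or 19.0% each, beside 18.4% and 20.5% of all genes. *BRPF1*, a scaffold of histone acetyltransferases, was higher (0.69 ± 0.13 without and 0.84 ± 0.13 with TGFβ, log2), and *KDM5A*, a demethylase of H3K4, was lower (-0.68 ± 0.07 and -0.71 ± 0.07). *PYGO1* was lower at few reads (-0.76 ± 0.25 and -0.74 ± 0.25), a call that several alternatives removed, and *ING4* was higher without TGFβ (0.69 ± 0.15). *ING4* lay under the fold threshold without siControl replicate 1 or siPHF13 replicate 1, and with edgeR and DESeq2, whose fits lacked the latter library, but passed the adjusted p in each. *BRPF1* without siControl replicate 1 changed by 0.46, and *KDM5A* lay under the fold threshold with the correction for GC content and length (-0.57 and -0.51).

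Of the 17 PBAF and related subunits, in whose complex PHF10 sits, 2 were called without TGFβ and 4 with it, or 11.8% and 23.5% beside 18.4% and 20.5% of all genes. *SMARCD3* was lowered most, from 1144 and 1122 in siControl to 440 and 445 in siPHF13 (-1.35 ± 0.10, adjusted p = 1.48e-07, limma), and from 1049 and 974 to 494 and 470 with TGFβ (-1.07 ± 0.10, adjusted p = 1.13e-06). *SMARCE1* was lower as well (-0.69 ± 0.09 and -0.78 ± 0.09, adjusted p = 3.58e-05 and 1.03e-05). With TGFβ *ARID2*, which defines PBAF, was lower (-0.61 ± 0.10, adjusted p = 0.000216), though not past the fold threshold without siPHF13 + TGFβ replicate 2 or with the correction for GC content and length. *DPF1*, a relative of *PHF10* found in the neuronal form of the related BAF complex, was higher (0.77 ± 0.13, adjusted p = 0.000171). By the adjusted p alone 7 subunits were lower in each comparison, beside 24.3% and 25.9% of all genes, and 2 and 3 were higher, beside 23.1% and 24.5%.

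The SIN3 and PHF12 partners numbered 10, of which 3 were called in each comparison, beside 18.4% and 20.5% of all genes. *MORF4L1*, a chromodomain subunit, was lower (-0.66 ± 0.06 and -0.65 ± 0.06), and *KDM5A* is in this list too. *HDAC1* was lower by the adjusted p in both comparisons, past the fold threshold with TGFβ (-0.71 ± 0.06) and short of it without (-0.50 ± 0.06). *SIN3B* was higher by the adjusted p in both, past the fold threshold without TGFβ (0.60 ± 0.08) and short of it with TGFβ (0.50 ± 0.08). Without siPHF13 replicate 2 the change of *SIN3B* was 0.53, under the fold threshold. In the NSL complex of 9 genes 1 was called, *KANSL3* with TGFβ (-0.62 ± 0.06), and it was also raised by TGFβ in siControl cells (0.63 ± 0.06). Both changes of *KANSL3* lay under the fold threshold with the correction for GC content and length (-0.53 and 0.57), and the first also without siPHF13 + TGFβ replicate 2 (-0.56). Both used the siControl + TGFβ libraries. Without TGFβ *KANSL3* was lower as well, short of the fold threshold (-0.33 ± 0.06, adjusted p = 0.000925, limma). It had 3227 and 3152 normalized reads in siPHF13 and 4178 and 3849 in siPHF13 + TGFβ. The difference between both TGFβ responses passed the adjusted p for 0 of the 9 NSL genes. Among 5 genes with a SPOC domain like that of *PHF3*, *RBM15B* was higher (0.66 ± 0.07 and 0.58 ± 0.07, the second down to 0.56 and under the fold threshold without siControl + TGFβ replicate 1 or siPHF13 + TGFβ replicate 1) and *SPOCD1* lower (-0.80 ± 0.20 and -1.20 ± 0.20). *SPOCD1* without TGFβ lost the adjusted p without siControl replicate 1 or siPHF13 replicate 1, and with edgeR and DESeq2, whose fits lacked the latter library. Of the 7 demethylases that pair a JmjC domain with a PHD finger, 1 and 2 were called, or 14.3% and 28.6%, and 3 and 5 were lower by the adjusted p alone. The shares of all genes were 18.4% and 20.5% called, and 24.3% and 25.9% lower by the adjusted p. Among 10 genes of PRC2 and heterochromatin linked to PHF13, 1 was called in each comparison, or 10.0%. This was *EZH1*, which was lower (-0.81 ± 0.12 and -0.76 ± 0.12). By the adjusted p alone 3 of the 10 were higher and 5 lower without TGFβ, and 3 higher and 4 lower with it. Of all genes 23.1% were higher and 24.3% lower without TGFβ, and 24.5% and 25.9% with it. The shares of called genes ran from 0% to 40.0% per list without TGFβ and from 10.0% to 40.0% with it, on 5 to 21 genes each. Over all genes they were 18.4% and 20.5%.

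**Figure D5:**
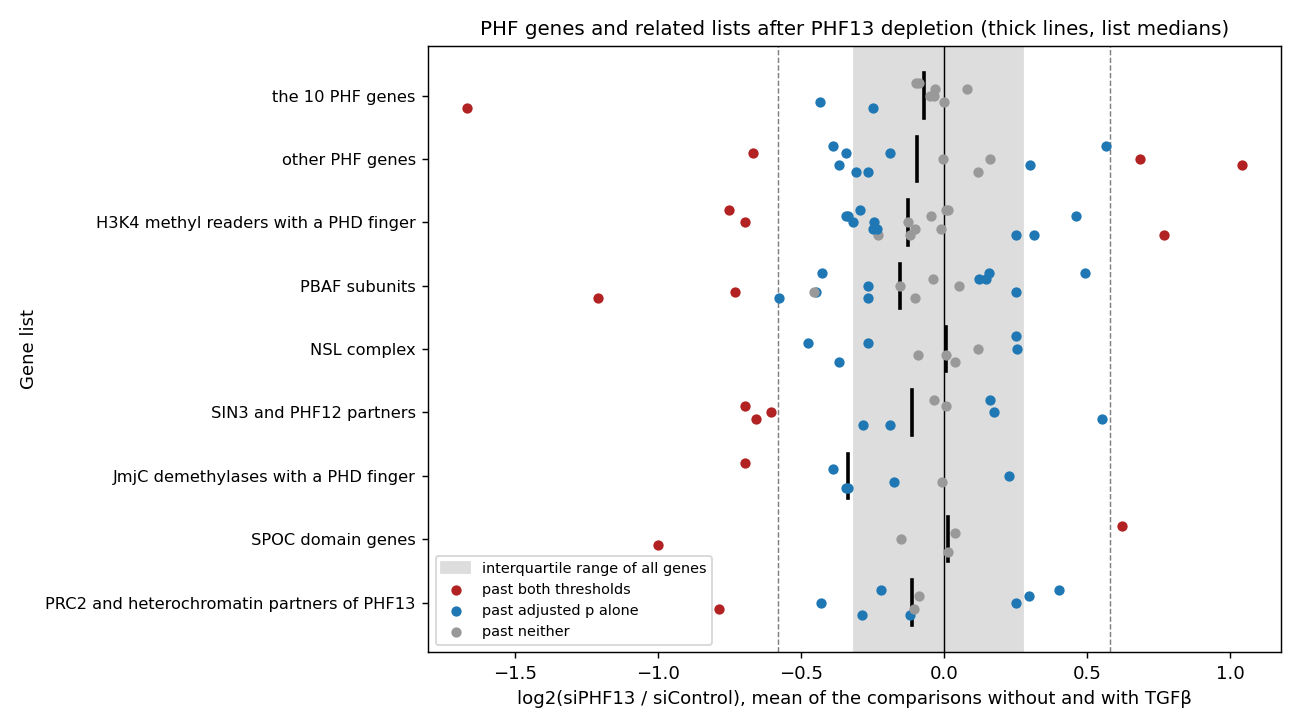
Log2 change after PHF13 depletion averaged over both treatments (x axis) of the 10 PHF genes and 8 lists of relatives and partners (y axis); points are genes, coloured by the thresholds they passed, thick lines are list medians, and the grey band is the interquartile range of all 13307 genes. *PHF13* stands apart at -1.67 while the other 9 of the set lie between -0.43 and 0.08, and *PHF5A* reaches 1.04. The row of H3K4 methyl readers holds genes with a PHD finger, not all of them readers of methylated H3K4.

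Markers of the cell line differed widely in level. Of 10 such markers 9 had a row, all but *TSPAN8*. *VIM* lay between 160328 and 202482, *KRT8* between 70723 and 120045 and *KRT7* between 379 and 489 normalized reads. Of these 9 markers 3 were called in each depletion comparison, or 33.3%, beside 18.4% and 20.5% of all genes. *CDH2* was lower (-0.85 ± 0.08 without and -0.83 ± 0.08 with TGFβ, log2) and *EPCAM*, between 115 and 306 normalized reads, was higher (0.78 ± 0.18 and 0.94 ± 0.18). *KRT19* rose by 0.25 ± 0.06 without TGFβ, short of the fold threshold, and by 0.76 ± 0.06 with it, where it was called but lay at 0.53 with the correction for GC content and length. *CDH1*, which encodes E-cadherin, lay between 78.8 and 460 normalized reads and was lower without TGFβ (-1.44 ± 0.33, and -0.88 without siPHF13 replicate 1), with a change of -0.11 ± 0.33 with TGFβ (adjusted p = 0.798, limma). TGFβ itself changed the siControl level that the depletion with TGFβ is set against. In siControl cells it called 3 of the 9 markers lower and 0 higher, beside 4.79% of all genes called. Their group means went from 431 to 119 for *CDH1*, from 33372 to 18674.5 for *KRT19* and from 116542 to 72806 for *KRT8*. By the adjusted p alone 4 of the 9 were lower and 2 higher, beside 15.9% of all genes in either direction. The group mean of *CDH2* went from 2163 to 3134, short of the fold threshold. Of 10 markers of immune, endothelial, acinar and islet cells only the macrophage gene *CD68*, which other cells express too, had a row among the genes analysed here. It lay between 6137 and 7666 in the control and between 10524 and 13400 in the depleted libraries, and the part of these markers in the values above was not tested.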

How the data were processed

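PolyA RNA of 8 Panc-1 libraries was sequenced with paired ends. The authors trimmed reads with Trim Galore 0.4.1, mapped them with STAR 2.7.0 to hg19, counted reads on exons with htseq-count (HTSeq 0.12.4) and normalized them with DESeq2. The deposited table holds a signal per gene and library, the gene count divided by a size factor. The values in the 3 tables of the authors' own comparisons (log2 fold changes, p-values) were not used. Columns were matched to samples by name. For siControl + TGFβ the group name came from the header of the authors' comparison of that group with siControl.

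In 7 libraries the values were whole multiples of the worth of 1 read (100% within 0.01). In siPHF13 replicate 1 that worth is 0.995, so close to 1 that reads could not be checked, and count tests used only those 7 libraries with the lone siPHF13 library assumed to vary like the others. edgeR called 2265, 2719, 624 and 148 genes for depletion without and with TGFβ and for TGFβ in siControl and siPHF13 cells, and DESeq2 called 2185, 2630, 610 and 170.

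Tests were one limma fit (limma 3.58.1, R 4.3.3; trended prior) of log2(normalized count + 1) over 4 groups, two-sided, adjusted by Benjamini-Hochberg over 13307 genes. Fold changes are on that scale, which understates those of low genes. Genes were called at adjusted p under 0.05 and an absolute log2 change over 0.58. A minimum of 10 in at least 2 libraries removed no gene. Alternatives were a pseudocount of 5, no minimum, TMM rescaling, edgeR 4.0.16 and DESeq2 1.42.0 on recovered reads, only the libraries compared, a replicate block, values corrected by splines for GC content and length of the transcripts (13123 genes with both), adjusted p alone, and each library left out. The script was tested on simulated data.

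The text names the 10 PHF genes, genes of the other lists past both thresholds, and the 3 genes nearest in pattern to *PHF13* and *PHF23*. *C6orf120*, *EYS* and the markers were added for their overlap or as a check. Members and lists were chosen with earlier results of these data known. Lists are described by counts and medians, with no test. Transcripts and coordinates are from GRCh37 with GENCODE; transcripts were compared by shared runs and windows of bases, and protein sequences and the siRNAs were not used here. The sequences themselves are not reported here.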

Additional observations from a re-analysis of the deposited data

How the results depend on the processing

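Of the 10 genes, *PHF13* was past both thresholds in each depletion comparison under each alternative run, and no other was, whereas the adjusted p alone gave 3, 3 and 3 genes without, with and averaged over TGFβ and 1 gene in place of 0 for TGFβ in siControl. Leaving out any 1 library changed none of the counts at both thresholds. *PHF10* passed the adjusted p in every alternative on depletion, *PHF8* did so only in the averaged value, and *PHF14* gained it after the correction for GC and length. Leaving out 1 library gained it for *PHF3* and *PHF12* with TGFβ (-0.226 and -0.271, adjusted p = 0.0160 and 0.0319, limma, without siPHF13 + TGFβ replicate 1) and for *PHF6* and *PHF20* averaged (-0.121 and -0.140, adjusted p = 0.0395 and 0.0346, without siControl + TGFβ replicate 1). The edgeR and DESeq2 fits differ from limma in the tool and in lacking siPHF13 replicate 1. The same replicate numbers did not pair the libraries (correlations of their deviations between -0.089 and 0.050), and a replicate block left the log2 change of *PHF13* at -1.68 and -1.66 and changed no call of a member. Signs turned where the change was small and did not pass the test, and the cause was not tested.

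With the correction for GC and length, with or without the replicate block, the log2 change after depletion turned to -0.0985 with TGFβ and -0.107 averaged for *PHF23*, and to 0.0164, 0.0384 and 0.0274 without, with and averaged over TGFβ for *PHF6*. With TGFβ and averaged it turned to 0.0494 and 0.106 for *PHF3*, 0.0257 and 0.0510 for *PHF12*, and 0.0654 and 0.0160 for *PHF20*, and averaged to 0.00611 for *PHF2*. In the TGFβ comparisons it turned to -0.0115 for *PHF2* and -0.0559 for *PHF8* in siControl cells, and to 0.00433 for *PHF6* in siPHF13 cells. On the recovered reads of 7 libraries, edgeR and DESeq2 gave -0.0173 and -0.0204 for the averaged change of *PHF23*, and -0.0738 and -0.0768 for *PHF12* with TGFβ in siPHF13 cells.

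With each library left out in turn, the change after depletion without TGFβ ran from -0.116 to 0.0621 for *PHF23*, from -0.0318 to 0.0525 for *PHF2* and from -0.0651 to 0.103 for *PHF12*. With TGFβ it ran from -0.0176 to 0.0736 for *PHF23*, from -0.214 to 0.0439 for *PHF2*, from -0.271 to 0.0356 for *PHF12*, from -0.0107 to 0.0765 for *PHF14* and from -0.157 to 0.0125 for *PHF20*. Averaged, it ran from -0.0441 to 0.0450 for *PHF23*, from -0.102 to 0.0271 for *PHF2*, from -0.0739 to 0.0104 for *PHF3* and from -0.126 to 0.0273 for *PHF12*. The response to TGFβ in siControl cells ran from -0.0241 to 0.154 for *PHF23*, from -0.0189 to 0.0550 for *PHF3*, from -0.103 to 0.0288 for *PHF6* and from -0.00815 to 0.0450 for *PHF8*. In siPHF13 cells it ran from -0.160 to 0.0975 for *PHF2*, from -0.108 to 0.0516 for *PHF8* and from -0.153 to 0.154 for *PHF12*.

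With 2 libraries a group, changes of the size of *PHF8* turn on single libraries. Reads in the stretch where *PHF10* and *C6orf120* overlap cannot be told apart without the strand.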
